A study of Mus musculus with 2 samples.

Results

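Apoptotic cell uptake was read from 10 genes for its receptors, bridging proteins and engulfment adaptors: Mertk, Axl, Tyro3, Gas6, Pros1, Mfge8, Timd4, Lrp1, Elmo1 and Dock1. They were chosen by name, and every array probe whose RefSeq accession belongs to one of them was taken, which gave 11 of the 39429 probes for genes and 10 of the 20656 genes that could be named. The cells were bone marrow-derived macrophages (BMDMs) grown with M-CSF from the marrow of male mice, 8 weeks of age, that were Crif1 f/f on the C57BL/6 background. Both groups carry the floxed Crif1 allele, and the methods name no Cre driver for the array samples. One group was untreated and the other was treated with IL-4 for 18 h, with the IL-4 dose for the arrays and the number of mice not given in the sources used here. The Cy3-labelled RNA of each group went onto 1 Agilent mouse array, so n = 1 per condition, no test between conditions was possible, and no p-value is given.

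A dying cell exposes phosphatidylserine on its surface, and macrophages recognise this lipid directly or through soluble bridges. Gas6 and Pros1 (protein S) bind the lipid and activate the TAM receptor kinases Tyro3, Axl and Mertk, Mfge8 links the lipid to αv integrins, and Timd4 binds it without a bridge. Lrp1 is a large endocytic receptor that takes part in uptake through calreticulin, and Elmo1 with Dock1 forms an exchange factor that activates Rac and so reshapes actin around the engulfed cell. Mertk is the TAM receptor best known for uptake by macrophages, and Timd4 is known from resident macrophages of tissues such as the peritoneum.

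Mertk and Elmo1 were at least 2-fold lower on the IL-4 array, no member was at least 2-fold higher, and 7 members lay within 2-fold. Mertk lay inside 2-fold with median scaling and with spike-in scaling, and Elmo1 with a normexp background step. Timd4 did not rise well above background under either condition. Of the 14073 named genes detected in this sense under 1 condition or both, 3.35% were lower by at least 2-fold and 3.06% were higher by as much. At a 1.5-fold cutoff the members stayed at 2 lower and 0 higher, beside 8.95% and 6.36% of these genes. The 9 members measured on both arrays all had a log2 difference (IL-4 minus untreated, after subtracting the 75th percentile of each array) below 0, where 52.3% of the 12744 genes measured on both arrays did. Their median log2 difference was -0.33, against -0.01 over those 12744 genes. The sign of 4 of the 9 depended on the scaling. With median scaling the median of all genes moved to 0.20 and with spike-in scaling to 0.27, and Axl, Tyro3, Pros1 and Dock1 then lay above 0. Relative to the median of all genes, which a shift of all genes cannot change, the median of the 9 members was -0.32, and -0.19 with quantile normalization, -0.39 with cyclic loess and -0.31 with normexp.

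**Figure D1:**
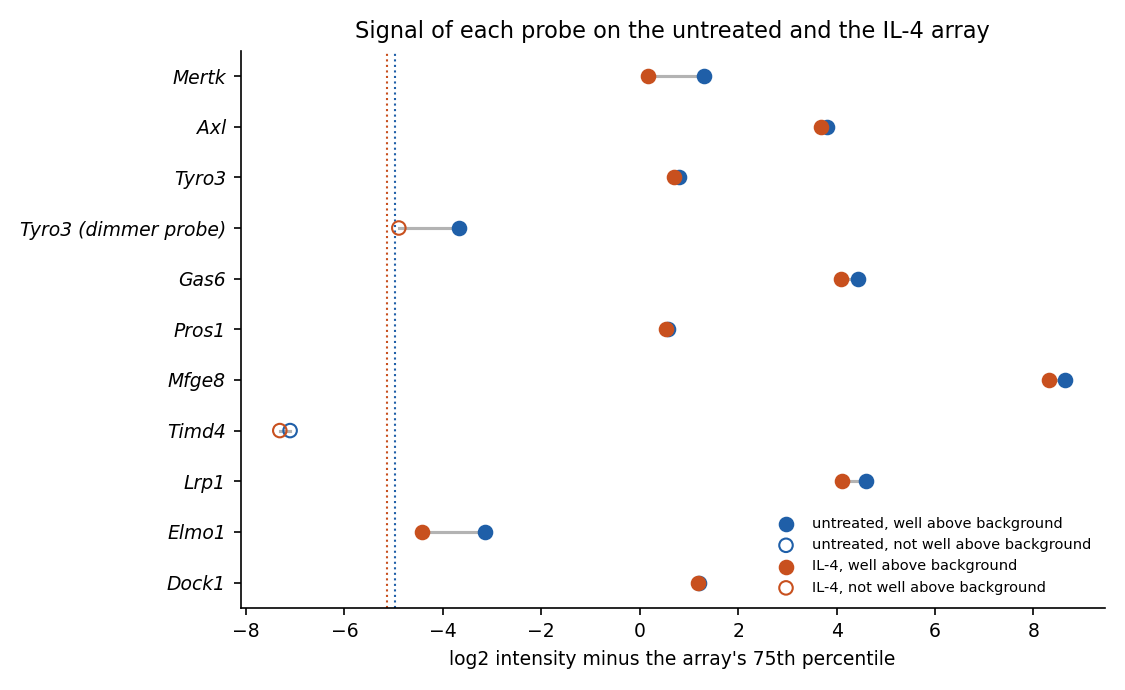
Log2 intensity of each of the 11 probes after subtraction of the array's 75th percentile, for untreated (blue) and IL-4-treated (orange) BMDMs. Open circles are not well above background, and the dotted lines mark the lowest signal well above background on each array. Mertk, Elmo1 and the dimmer Tyro3 probe show the widest gaps, and Timd4 lies below both lines. Levels of different probes are not comparable.

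Of the TAM receptors, Mertk had a background-subtracted intensity of 2263 in untreated and 1102 in IL-4-treated BMDMs. Its log2 difference was -1.14, a 2.20-fold lower signal. Each member probe was printed in 1 spot, so the error comes from the scanner software, whose error for the Mertk spot on each array, combined, is an SD of 0.20 for the log2 difference. Probes of like signal that were printed in 10 spots had a median SD between spots of 0.058 for the same difference. Both are far smaller than the difference of Mertk, and neither covers the spread between cultures. With median scaling Mertk stood at -0.92 and with spike-in scaling at -0.85, both inside 2-fold, where Elmo1 was past it, with spike-in scaling only just. Among 3530 genes with a mean signal within 1 log2 unit of Mertk, 0.652% were past 2-fold lower and 0.397% were as low as Mertk or lower. Bulk RNA cannot tell less Mertk RNA per cell from fewer cells that express it.

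Axl, which responds to Gas6 alone among these ligands, had an intensity of 12744 untreated and 12593 after IL-4. Its log2 difference of -0.12 is smaller than the scanner error of 0.20. The brighter Tyro3 probe read 1584 and 1586, with a log2 difference of -0.10. The log2 difference of Mertk minus that of Axl was -1.02, where the scanner error of both genes together was 0.29. A setting that shifts all genes alike cannot change this gap, which was -0.95 with quantile normalization, -0.98 with cyclic loess and -0.99 with normexp. For Mertk and the brighter Tyro3 probe the gap was -1.04, while Axl and Tyro3 differed by -0.02. The second, dimmer Tyro3 probe, annotated to the same transcript, read 71.5 untreated and 33.0 after IL-4, where it was not well above background. Its scaled signal was 2.32-fold lower, against no such difference at the brighter probe. This value is as read and is no firm bound, and the scanner error of its log2 difference was 0.43. Spike-in probes, for synthetic RNA added to both samples, on either side of it in intensity had differences of -0.70 and -2.53. The cause of the disagreement between the Tyro3 probes was not tested, and taking the median over both puts Tyro3 at -0.66.

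The bridging proteins were within 2-fold. Gas6 had an intensity of 19811 untreated and 16789 after IL-4, a log2 difference of -0.34 or a 1.26-fold lower signal. Pros1 read 1355 and 1410, with a log2 difference of -0.04. Mfge8 read 367564 and 312284, a log2 difference of -0.33, with no saturated spot. Gas6 was lower than Pros1 by about the scanner error of the pair, at -0.30 against an SD of 0.29. The spike-in probes, which detect synthetic RNA added to both samples, bear on the small differences: over the 32 spots of the spike-in probe nearest to Gas6 in intensity the difference was -0.33 (SD 0.065), and over those of the one nearest to Mfge8 it was -0.08 (SD 0.11). Spike-in scaling, which uses 1 offset for all brightnesses, put Gas6 at -0.05 and Mfge8 at -0.05. Near its own brightness, Mfge8 with -0.33 stood lower than added RNA with -0.08, a gap not far beyond the scanner error of 0.20 for Mfge8. With quantile normalization Mfge8 stood at -0.15. The difference of Gas6 and that of added RNA at the same brightness, -0.33, were within 1 SD of each other.

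Lrp1 had an intensity of 22265 untreated and 16833 after IL-4. Its log2 difference of -0.50, a 1.42-fold lower signal, exceeds the scanner error of 0.20. The spike-in probe nearest to Lrp1 in intensity, the same as for Gas6, had a difference of -0.33 (SD 0.065). The part of this in the Lrp1 value was not tested. Of 1140 genes of like signal, 2.28% were at least as low. The difference of Lrp1 ranged over the settings between -0.61 with quantile normalization and -0.22 with spike-in scaling. Lrpap1, the chaperone that escorts Lrp1 through the secretory pathway, had a log2 difference of -0.20. Timd4 read 6.66 and 6.17, where the lowest intensities that counted as well above background were 29.2 and 27.9, and it has no fold. Havcr1, a relative that also binds phosphatidylserine, and Timd2 of the same family were not well above background under either condition.

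The engulfment adaptors parted. Elmo1 had an intensity of 104 untreated and 45.5 after IL-4, well above background on both arrays but dim, with a log2 difference of -1.29. The scanner error of this difference was 0.30 and the spot SD of probes of like signal 0.21. Its partner Dock1 read 2113 and 2226, a log2 difference of -0.02, so that the gap between the partners was -1.26. The scanner error of both genes together was 0.36, and over the settings the gap ranged from -1.26 to -0.81. Dim signals as a whole leaned lower on the IL-4 array. Of 1955 genes of like signal, 4.71% were past 2-fold lower and 1.94% were as low as Elmo1 or lower, and their median was -0.14. The spike-in probe nearest to Elmo1, whose log2 intensity without IL-4 was 6.75, gave a difference of -0.70 (SD 0.20 over 32 spots). The next dimmer one, at 5.23, had -2.53 (SD 0.77) and stood well above background in 59.4% of spots without and 3.12% of spots with IL-4. The part of this in the Elmo1 value was not tested. With normexp, a background step that damps dim signals, Elmo1 stood at -0.83, inside 2-fold, and Mertk at -1.07.

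**Figure D2:**
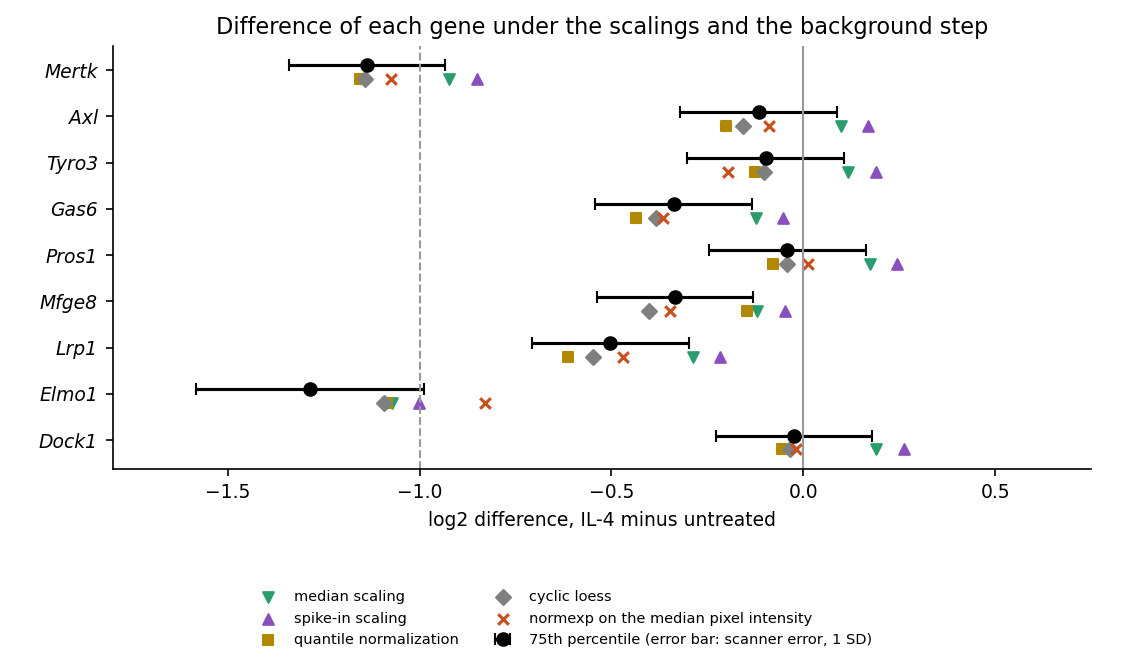
Log2 difference (IL-4 minus untreated) of the 9 genes measured on both arrays, with 75th percentile scaling (black, error bar 1 SD of the scanner error) and under 4 other scalings and normexp (coloured marks); the dashed line marks 2-fold. Over all settings, including some that are not drawn, Mertk lies between -1.19 and -0.85 and Elmo1 between -1.34 and -0.83. Axl, Tyro3, Pros1 and Dock1 lie on either side of 0.

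**Figure D3:**
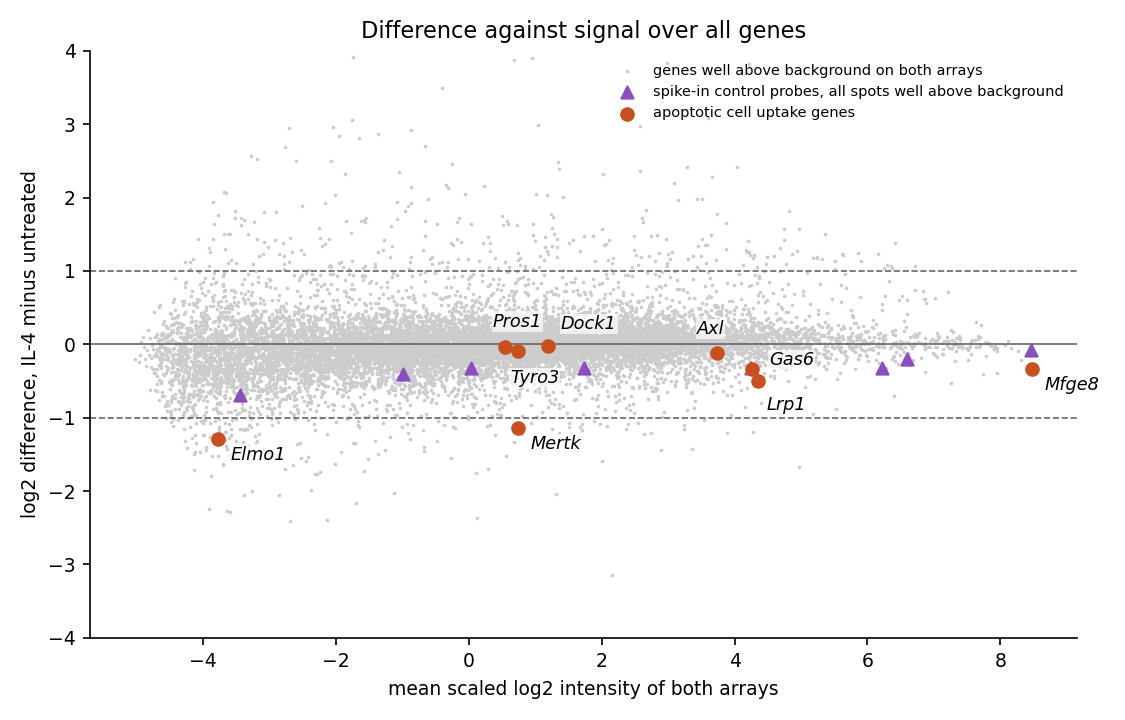
Log2 difference against mean scaled log2 intensity for the 12744 genes measured on both arrays (grey, 1 point a gene, 8 genes beyond 4 log2 units not drawn), the spike-in probes that were well above background in every spot (triangles) and the members (orange). Mertk lies apart from genes of its brightness, Elmo1 lies where the grey cloud is wide, and Gas6 lies on a triangle.

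The promoter letters of the members that were lower, and of the one with the longer STAT motif, are shown because STAT6 carries the IL-4 signal to DNA. The sequences are the 250 bases before the RefSeq start on GRCm38.p6, 5′ to 3′ on the gene's strand, and capitals mark TTC and GAA with 4 bases between them, the spacing that STAT6 is known to prefer, or with 3, the spacing of other STATs. Both motifs read the same on either strand, and no matches overlapped in these windows. The Mertk promoter is at chr2:128698665-128698914, the Elmo1 promoters at chr13:20090257-20090506 and chr13:20472740-20472989, and the Pros1 promoter at chr16:62854057-62854306, all on the plus strand.
Mertk: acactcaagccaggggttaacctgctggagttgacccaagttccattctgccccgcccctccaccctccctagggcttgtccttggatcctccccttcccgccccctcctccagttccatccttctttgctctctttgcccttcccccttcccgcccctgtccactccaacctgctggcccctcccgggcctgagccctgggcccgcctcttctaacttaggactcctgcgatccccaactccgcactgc
Elmo1, first start: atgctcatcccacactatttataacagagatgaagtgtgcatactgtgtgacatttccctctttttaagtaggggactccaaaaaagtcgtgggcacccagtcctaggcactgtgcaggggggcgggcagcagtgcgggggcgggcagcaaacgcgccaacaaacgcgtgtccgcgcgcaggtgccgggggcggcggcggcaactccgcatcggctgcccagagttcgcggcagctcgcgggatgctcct
Elmo1, second start: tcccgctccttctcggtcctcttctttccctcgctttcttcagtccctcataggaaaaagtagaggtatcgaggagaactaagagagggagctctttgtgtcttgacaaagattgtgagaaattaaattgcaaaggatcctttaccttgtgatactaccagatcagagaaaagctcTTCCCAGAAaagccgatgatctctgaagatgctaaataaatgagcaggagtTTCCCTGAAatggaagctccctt
Pros1: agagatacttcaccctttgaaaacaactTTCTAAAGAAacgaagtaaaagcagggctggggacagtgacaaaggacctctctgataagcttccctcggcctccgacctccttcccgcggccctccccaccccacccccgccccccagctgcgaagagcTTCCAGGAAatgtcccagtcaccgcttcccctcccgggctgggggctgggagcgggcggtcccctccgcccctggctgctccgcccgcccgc

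All 10 members had a promoter in the table, 11 windows with the 2 starts of Elmo1. In the 300-base windows, which add 50 bases after the start, the motif with 4 bases between was found in 1 of the 11, that of Pros1, and in 6.95% of all 32851 windows. The motif with 3 bases between was found in 3 of the 11, those of Pros1, Lrp1 and the second start of Elmo1, and in 8.3% of all windows. The Elmo1 window held it at 2 places. The repeat of AGGTCA after 1 base, a site bound by PPARγ with RXR and searched on both strands, was in none of the 11 and in 0.0396% of all windows. The Mertk window, 63.6% G and C before the start, held none of these letters. Of the genes with a match, Pros1 stood at a log2 difference of -0.04, Lrp1 at -0.50 and Elmo1 at -1.29. Which of the Elmo1 starts its probe reports is not known, and only the second holds a match.

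The other genes of the uptake pathway were taken from 7 lists of 91 genes chosen for their known roles. Of the 90 that could be named on the array, 81 were detected under both conditions, 3 under 1 and 6 under neither. Past 2-fold, 4 of the 84 measured were higher, or 4.76%, and 4 were lower, also 4.76%, beside 3.06% and 3.35% of all genes. The median log2 difference of the pathway genes was -0.04. With median scaling it was 0.17, and the counts became 7 higher and 3 lower.

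Among other phosphatidylserine receptors and their co-receptors, 12 of 17 were measured on both arrays. Cd300lb, an activating receptor of myeloid cells that binds phosphatidylserine, read 1887 untreated and 4865 after IL-4, a log2 difference of 1.27. Cd14, a co-receptor for lipopolysaccharide that also tethers apoptotic cells, read 15287 and 6118, with a difference of -1.42. Cd93, a C-type lectin-like receptor, stood at -1.19. The integrin chains that receive Mfge8 parted: Itgb3 was higher by 0.82 log2 units, with 0.63 at its other probe, Itgb5 had a difference of -0.95, and their shared partner Itgav had 0.20. Stab1, a scavenger receptor that binds phosphatidylserine, had a difference of -0.80, and Cd36 one of 0.34.

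Of the other bridges and opsonins, 10 of 13 were measured on both arrays, and 1, the long pentraxin Ptx3, was at least 2-fold higher, with intensities of 963 and 2130 and a log2 difference of 1.05. The C1q chains, which coat dying cells, had differences of 0.09 for C1qa, -0.17 for C1qb and -0.04 for C1qc. Edil3, a relative of Mfge8, had 0.50. Calr, the ligand of Lrp1, had 0.11 and Lgals3, a ligand of Mertk, 0.05.

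All 15 of the other engulfment genes that could be named lay within 2-fold, from -0.36 for Dock5 to 0.47 for Gulp1, an adaptor that binds the tail of Lrp1. Rac1 had a difference of 0.24. Elmo3, the paralog of Elmo1, had 0.03 at its brighter probe and a bound of -0.85 at the other, which was dim, and Dock2, the Dock1 relative of blood cells, -0.16. Around the TAM receptors, Adam17, the protease that sheds Mertk, had 0.17 at its brighter probe and 0.45 at the other, both at dim signal. Ggcx, the vitamin K-dependent carboxylase that modifies Gas6 and Pros1, had 0.22, and Vkorc1, which recycles the vitamin, 0.07. Vav3, an exchange factor in TAM signalling, had -0.50. Src read 111 untreated and 26.7 after IL-4, where it was not well above background, a bound of at least 4.26-fold lower at dim signal. The spike-in probe nearest to Src in intensity had a difference of -0.70 (SD 0.20), and its part in the Src value was not tested.

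None of the 18 genes of digestion and efflux passed 2-fold. Abcg1, a cholesterol exporter, came nearest with a log2 difference of 0.97, while Abca1, the other main exporter, had -0.54 and Cybb, the oxidase subunit used in LC3-associated phagocytosis, -0.57. Among the transcription factors known to control uptake genes, Pparg read 3669 and 8349, a difference of 1.09, and Klf4 1246 and 2731, a difference of 1.03. Nr1h3 (LXRα), which with its partner RXR can drive Mertk, had -0.05, while Maf had -0.75. The partner gene Rxra had -0.27 at its brighter probe and -0.07 at the other, both at dim signal. Of the genes for find-me and do-not-eat-me signals, Cx3cr1, the receptor of fractalkine released by dying cells, read 12033 and 1464 and was 8.81-fold lower. P2ry6, a receptor for released nucleotides, had 0.83, Cd47 0.45 and its receptor Sirpa 0.09.

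**Figure D4:**
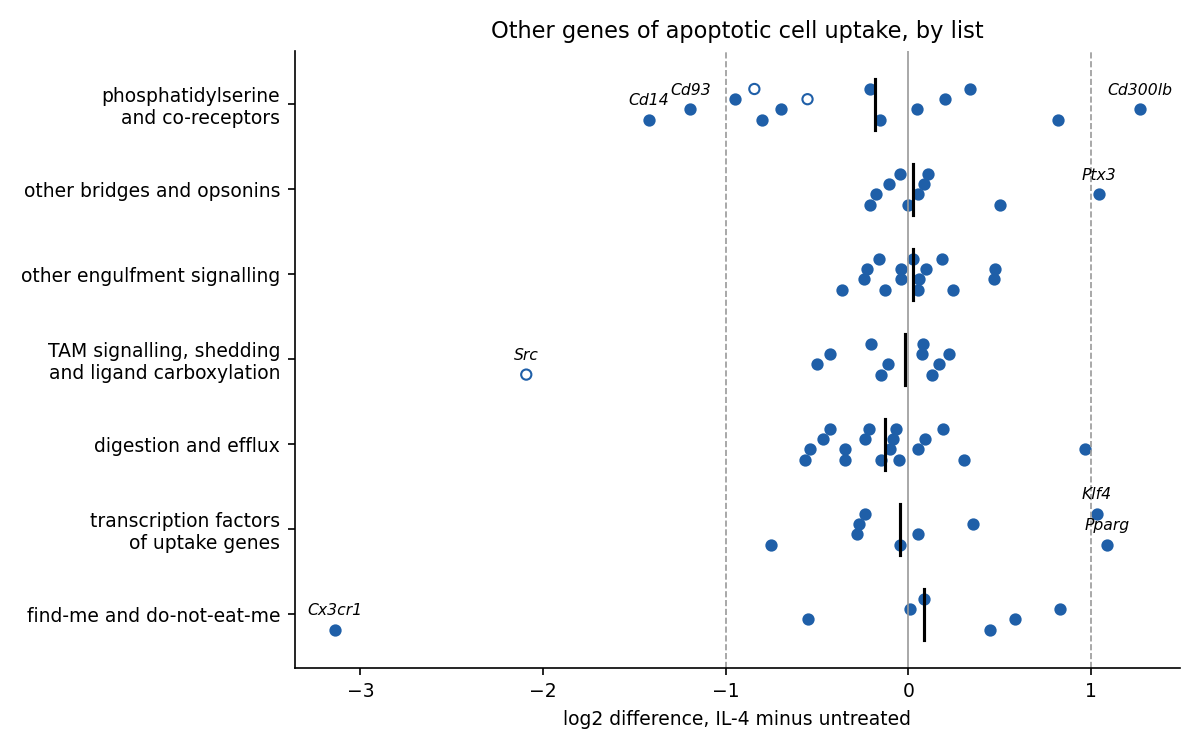
Log2 difference (IL-4 minus untreated) of the 84 pathway genes detected under 1 condition or both, 1 point a gene, in the 7 lists; black bars are list medians over genes measured on both arrays, open circles are bounds and dashed lines mark 2-fold. Named points are the 8 genes past 2-fold, 4 in each direction.

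The label IL-4 was checked on M2 markers: Arg1 was 216-fold higher and Mrc1 5.33-fold higher. Macrophage markers were well above background on both arrays for 7 of 7 named genes, with a summed intensity of 299320 untreated and 279177 after IL-4. Their median log2 difference was -0.70, below that of the members. The dimmer Itgam probes had -0.27 and -0.24, and with either in place of the brightest this median would lie above that of the members. Of the 7, 4 were below 0, with Cd14 at -1.42, Fcgr1 at -1.23, Itgam at -0.71 and Lyz2 at -0.70, while Csf1r stood at 0.09 and Adgre1 (F4/80) at 0.17. The part of these shifts in the members' values was not tested. Stromal markers were well above background for 6 of 6, with Col1a2 at an intensity of 233342 untreated and 234332 after IL-4 and a summed intensity of 327604 and 319355, and the median of their log2 differences was -0.12. Axl, Gas6, Lrp1 and Dock1 are genes that stromal cells express too, and their source in these cultures was not tested. Neutrophil markers, well above background for 5 of 5, had a median of -0.54 and a summed intensity of 5647 and 4329. Of lymphocyte markers 1 of 7, of dendritic cell markers 1 of 5, of eosinophil markers 3 of 5 and of mast cell markers 2 of 4 were well above background on both arrays.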

How the data were processed

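Total RNA of 2 samples was measured, 1 array per condition, on an Agilent design annotated on mm9. The authors deposited Feature Extraction 10.10.1.1 output, made with default settings, whose spot intensity has the background subtracted and is detrended, with no scaling between arrays. They also deposited processed log2 values, whose settings are not given in the sources used here, used only as an alternative. Software flags served as the other deposited columns. From the intensity, control and outlier spots were left out, log2 values averaged per probe and each array's 75th percentile (9.84 untreated, 9.94 IL-4) subtracted. Of 39424 probes kept, 27229 were named through RefSeq accessions (GRCm38.p6, names and promoters only), and a gene was read from its brightest probe. A probe well above background on 1 array gives a bound, for which its signal on the other array, if dimmer than any signal well above background there, is raised to the lowest such signal. If not dimmer, the signal is used as read, and the difference is then no firm bound. Called means at least 2-fold. The number of arrays limits the precision. Named were all members, pathway genes past 2-fold and up to 3 per list and direction. Members, lists and alternatives were chosen with earlier results of these data known. Counting was tested on simulated data. Tools were limma 3.58.1 in R 4.3.3, and pandas 2.3.3 with numpy 2.4.6 in Python 3.11.15.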

Additional observations from a re-analysis of the deposited data

How the results depend on the processing

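No paired analysis was possible because the design holds a lone array on each side, so no replicate could be left out. The median of the 9 members, -0.33, was -0.12 with median scaling, -0.24 without scaling, -0.20 with quantile normalization and -0.049 with spike-in scaling. That of the pathway genes, -0.04, was 0.17, 0.056, -0.13 and 0.24 under the same settings. Members at least 2-fold lower, 2, were 1 with median scaling and with spike-in scaling, where Mertk stood at -0.92 and -0.85, and 1 with normexp, where Elmo1 stood at -0.83. Pathway genes at least 2-fold higher, 4, were 7 at a 1.5-fold cutoff, with median scaling and with spike-in scaling, and 2 with the 75th percentile taken over probes detected under both conditions. Those at least 2-fold lower, 4, were 9 at the 1.5-fold cutoff and 7 with no filter and no bounds. The cutoff and the filter change these counts by construction. Median scaling, spike-in scaling and the 75th percentile over probes detected under both conditions each shift all genes by 1 amount. Genes near the cutoff then cross it, also by construction. Why quantile normalization moved the medians was not tested. Genes at least 2-fold higher made up 47.7% of all called genes, and 67.7% with median scaling, 65.0% with quantile normalization, 59.7% with cyclic loess, 57.8% without scaling, 73.4% with spike-in scaling, 62.0% with normexp, 35.7% with the median over probes, 61.6% with genes on both arrays only and 29.8% with no filter. No member was at least 2-fold higher under any of the 13 alternatives. Of 108 single member values under them, 68 moved by less than the spot error, many of them under settings that leave a single probe's value as it is by construction. Normexp used median pixel values, as a mean column is not in these files. Where signal is dim, as for Elmo1, the second Tyro3 probe and Src, the size of a difference is not well measured by 1 spot.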
